A study of Mus musculus with 30 samples.

Results

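Granzymes A, B, C, D, E and K (Gzma, Gzmb, Gzmc, Gzmd, Gzme, Gzmk), perforin (Prf1), the granule protein Nkg7 and interferon gamma (Ifng) were followed through a mouse array series on CD11b+ cells. These are 9 genes of the 18194 that the platform annotation names, each read from the brightest, on average over the 30 arrays, of the probe sets assigned to it alone, and 9 of 9 were measured. CD11b+ cells were enriched with magnetic beads and profiled on Affymetrix MOE430 2.0 arrays in 10 groups of 3. The study set myeloid-derived suppressor cells (MDSC), immature myeloid cells that gather in tumor-bearing mice and restrain T cells, against CD11b+ cells of healthy spleen and of fresh bone marrow. The BALB/c groups were healthy spleen, the spleen and the tumor infiltrate of mice bearing C26-GM, the tumor infiltrate of mice bearing 4T1, fresh bone marrow, and marrow cultured for 4 days with GM-CSF plus IL-6 or with GM-CSF plus G-CSF. The C57BL/6 groups were healthy spleen and the tumor infiltrates of mice bearing EL-4 or MCA203. C26-GM is a colon carcinoma that releases GM-CSF, 4T1 a mammary carcinoma, EL-4 a lymphoma of T cell origin and MCA203 a fibrosarcoma. Each tumor line was grown in 1 strain, so strain and tumor line cannot be told apart. For the C57BL/6 healthy spleens the titles and strain fields name C57BL/6 while the source text names BALB/c, and they are grouped by title and strain. No age or sex is given in the labels, and no label ties an array to a separate animal, so p-values measure the spread between these arrays, which may be technical.

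Cytotoxic T cells and natural killer (NK) cells kill by releasing granules in which perforin opens the target's membrane and granzymes, a family of serine proteases, enter through it. Granzyme B starts apoptosis by cutting caspases and their substrates, and granzymes A and K are tryptases that act by other routes. Nkg7 sits in the granule membrane and promotes granule release, and interferon gamma is the cytokine these cells secrete to activate macrophages and raise antigen presentation. A CD11b+ fraction consists mainly of granulocytes, monocytes and macrophages, but mouse NK cells and activated CD8 T cells can also carry CD11b.

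All values are log2 RMA expression, a level in which 1 unit is 2-fold, and a level is not set against that of another gene because probe sets bind with different strength. A gene was called when limma's adjusted p over all genes was below 0.05 and its groups differed by at least 1 log2 unit. Itgam, which encodes CD11b itself, had group means between 9.50 and 10.82. Arrays of 1 group correlated at 0.941 to 0.995. The lowest correlations lay in the culture groups, where the third GM-CSF plus IL-6 array and the second GM-CSF plus G-CSF array had a wider spread of values than the other 4, and in the C26-GM groups, where the third arrays stood apart. With either kind of culture array alone, or without the third C26-GM arrays, each count of called members given here was as large. On such bulk arrays fewer cells of a type and less RNA per cell cannot be told apart.

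The members were unevenly present in healthy spleen. Gzma read 10.70, 10.25 and 10.82 on the BALB/c spleen arrays and 9.69, 9.05 and 9.01 on the C57BL/6 ones. The BALB/c values were all higher, and the difference of -1.34 ± 0.34 (SE, limma, adjusted p = 0.0267) for C57BL/6 less BALB/c was the single call among 9 members, in a comparison that called 0.742% of all genes lower, 0.654% higher and 1.4% either way. It was no longer called without BALB/c array 1 or 3 (-1.28 and -1.22), or without C57BL/6 array 2 or 3 (-1.24 and -1.22). Gzmb stood at 6.92 ± 0.37 (SD, n = 3) in BALB/c and 6.20 ± 0.51 in C57BL/6 spleen, and Prf1 at 6.88 ± 0.44 and 6.00 ± 0.46. These last differences, -0.72 for Gzmb and -0.89 for Prf1, did not pass the test (limma, adjusted p = 0.193 and 0.0743). Prf1 passed without BALB/c array 2 (-1.14) and both Prf1 and Gzmb passed without C57BL/6 array 1 (-1.14 and -1.01), so the count ran from 0 to 3 with 1 array left out. The second BALB/c array was the lowest of its group for Gzma, Gzmb, Prf1, Nkg7 and Ifng.

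**Figure D1:**
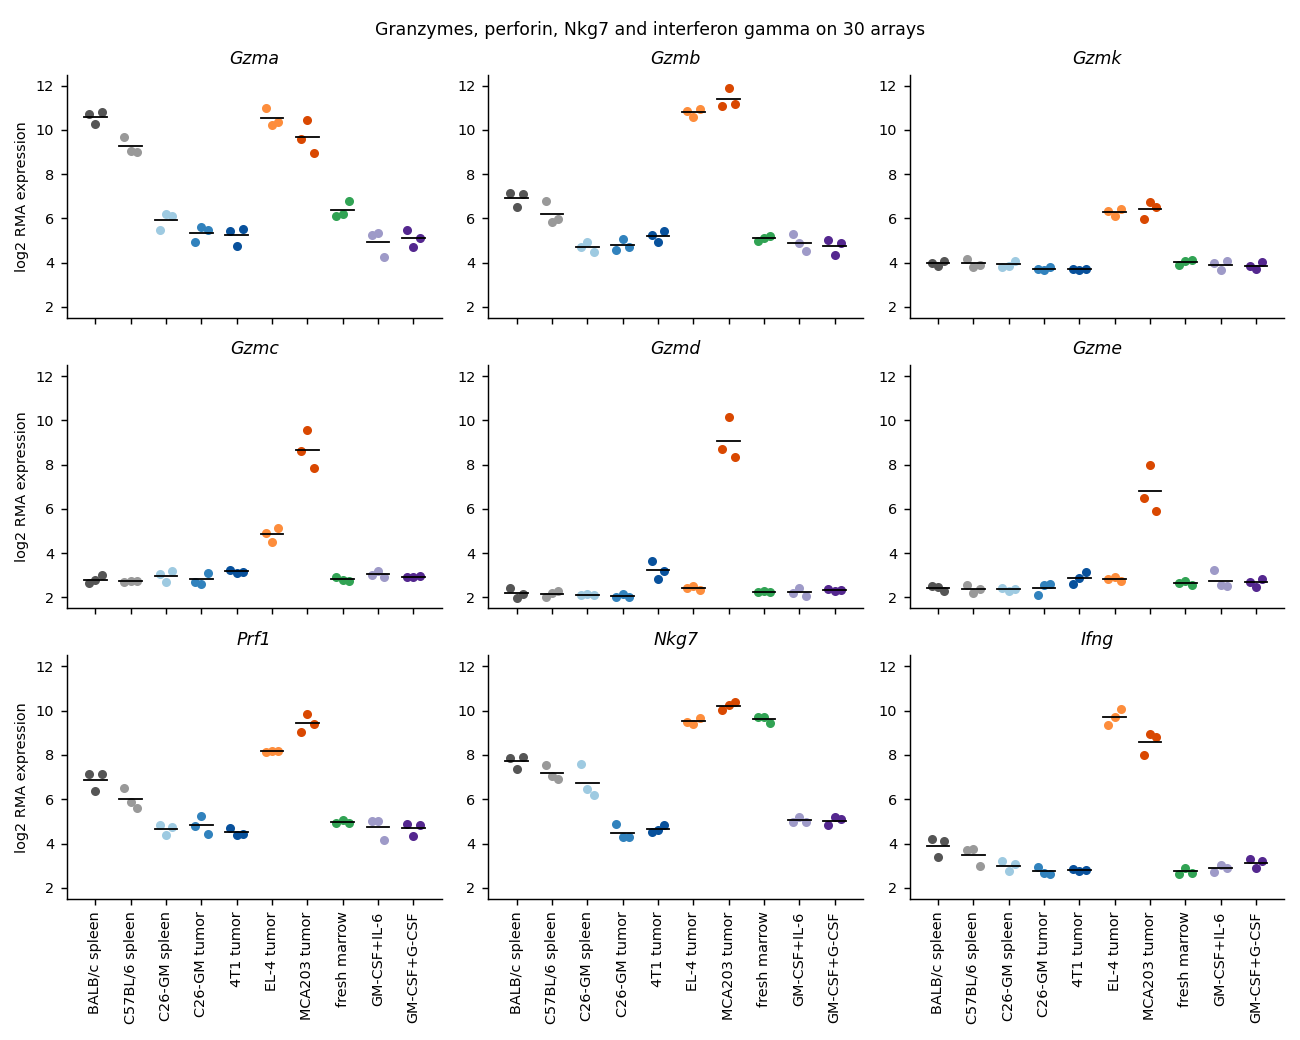
Log2 RMA expression of each member on the 30 arrays, 1 panel per gene; points are arrays, bars are group means and colors mark the 10 groups. In the EL-4 and MCA203 tumors Gzmb, Gzmk, Prf1 and Ifng lie above every other group, Gzmc, Gzmd and Gzme peak in MCA203, and Nkg7 is also high in fresh marrow.

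CD11b+ cells from EL-4 tumors carried more transcript of 7 of the 9 members than C57BL/6 spleen and less of none, where limma called 6.42% of all genes higher, 4.4% lower and 10.8% either way. Ifng and Gzmb moved most. Ifng read 9.37, 9.70 and 10.07 in the tumor and 3.69, 3.75 and 2.99 in spleen. The groups lay far apart, a difference of 6.23 ± 0.24 (75.2-fold, adjusted p = 2.43e-16). Gzmb read 10.86, 10.58 and 10.94 in EL-4 against 6.78, 5.84 and 5.97 in spleen. No spleen array came near the tumor arrays, and the difference was 4.60 ± 0.26 (24.2-fold, adjusted p = 2.71e-13). Prf1, the pore former, read 8.16, 8.17 and 8.20 against 6.51, 5.89 and 5.60, the most even triplet of the series for this gene. Its difference was 2.18 ± 0.26 (4.52-fold, adjusted p = 3.23e-07).

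Nkg7 rose with them by 2.35 ± 0.25 (5.11-fold, adjusted p = 3.33e-08), from 7.18 ± 0.33 (SD, n = 3) in spleen to 9.53 ± 0.14. Gzmk, whose group means in all 8 groups other than EL-4 and MCA203 lay between 3.71 and 4.04, read 6.36, 6.12 and 6.41 in EL-4, a rise of 2.33 ± 0.16 (5.03-fold, adjusted p = 1.92e-11). Gzmc rose by 2.11 ± 0.25 (4.33-fold, adjusted p = 2.6e-07), with readings of 4.89, 4.51 and 5.14. Gzma, already high in spleen, read 10.99, 10.21 and 10.36, all above the C57BL/6 spleens and level with the BALB/c ones. Its rise of 1.27 ± 0.34 (adjusted p = 0.00579) fell to 0.76 (adjusted p = 0.0762) when arrays were centred on housekeeping genes. Gzmd and Gzme, the nearest relatives of Gzmc, did not pass. Their differences were 0.26 (95% interval -0.29 to 0.81) for Gzmd and 0.47 (-0.14 to 1.09) for Gzme.

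MCA203 tumors showed the broadest rise, with 8 of 9 members higher and none lower against C57BL/6 spleen, where 5.01% of all genes were called higher, 5.42% lower and 10.4% either way. Gzmd and Gzmc moved most. Gzmd read 8.70, 10.16 and 8.35 in the tumor against 2.02, 2.19 and 2.27 in spleen. That is a difference of 6.91 ± 0.27 (120.4-fold, adjusted p = 1.38e-16), with spleen close to the lowest values on the array. Gzmc read 8.59, 9.56 and 7.85 against 2.68, 2.76 and 2.75, a difference of 5.94 ± 0.25 (61.3-fold, adjusted p = 6.38e-16). Gzme read 6.49, 7.98 and 5.88 against 2.55, 2.17 and 2.38, a difference of 4.42 ± 0.30 (21.3-fold, adjusted p = 7.43e-12). All tumor arrays stood clear of all spleen arrays for these 3 genes.

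Gzmb rose to 11.06, 11.88 and 11.18 in MCA203, a difference of 5.18 ± 0.26 (36.2-fold, adjusted p = 1.29e-14). Ifng read 8.01, 8.96 and 8.81, a difference of 5.12 ± 0.24 (34.7-fold, adjusted p = 4.56e-15). Prf1 read 9.06, 9.86 and 9.41 and rose by 3.44 ± 0.26 (10.9-fold, adjusted p = 7.1e-11). Each of these lay above every C57BL/6 spleen array. Nkg7 rose by 3.05 ± 0.25 (8.31-fold, adjusted p = 2.43e-10) to 10.23 ± 0.18 (SD, n = 3), and Gzmk by 2.45 ± 0.16 (5.45-fold, adjusted p = 4.76e-12) to 6.41 ± 0.40. Gzma, read at 9.60, 10.45 and 8.97, was the exception. Its arrays overlapped the spleen arrays and its difference of 0.42 (95% interval -0.28 to 1.12, adjusted p = 0.417) did not pass. The second MCA203 array was the highest of its group for every member except Nkg7.

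**Figure D2:**
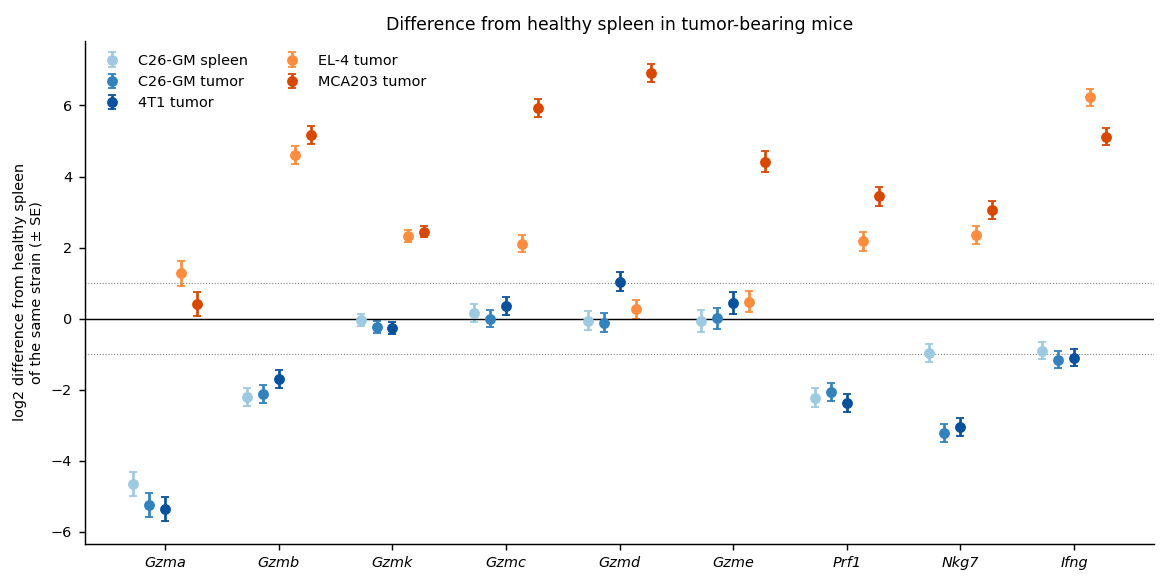
Log2 difference of each member from the healthy spleen of the same strain, with standard errors from the fit, in the 5 groups of tumor-bearing mice; dotted lines mark 1 and -1. EL-4 and MCA203 points lie at or above 0 for every member, from 0.26 to 6.91, while the 3 BALB/c groups lie below 0 for Gzma, Gzmb, Prf1, Nkg7 and Ifng.

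Gzmb, Gzmc, Gzmd and Gzme lie together on chromosome 14, in the order Gzme, Gzmd, Gzmg, Gzmn, Gzmf, Gzmc, Gzmb (RefSeq, GRCm38.p6). Gzma and Gzmk are neighbors on chromosome 13, Prf1 and Ifng are both on chromosome 10 and Nkg7 is on chromosome 7. Within the chromosome 14 cluster, Gzmf and Gzmg also rose in MCA203, by 5.16 ± 0.24 and 4.45 ± 0.38 (limma, adjusted p = 2.91e-15 and 5.37e-10). Gzmn, which lies between them, differed by 0.035 (95% interval -0.26 to 0.33, adjusted p = 0.887). In EL-4 Gzmf differed by 0.85 and Gzmg by -0.16, and neither was called. Gzmb, at the end of the cluster next to Gzmc, rose in both tumors.

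**Figure D3:**
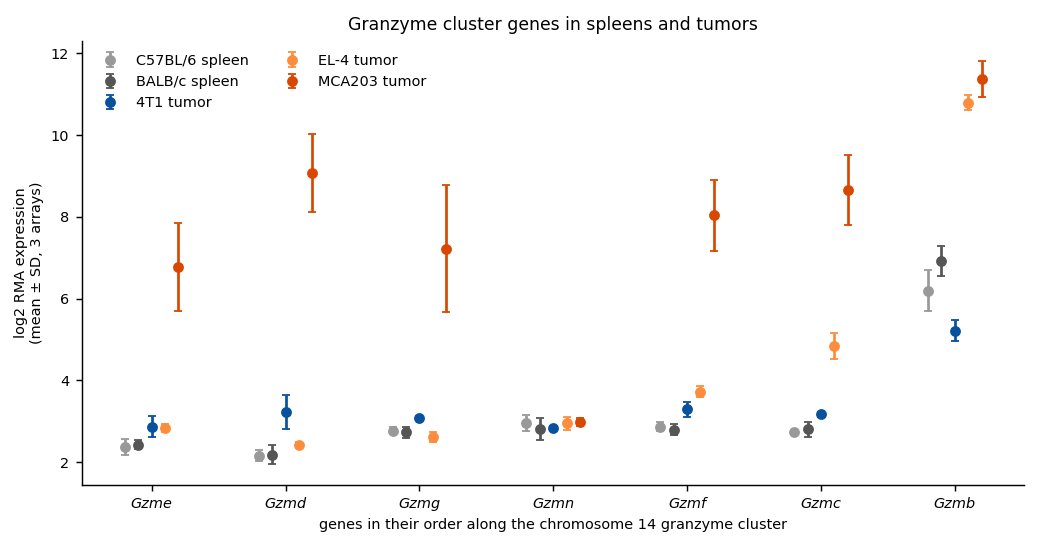
Mean log2 RMA expression ± SD (3 arrays) of the 7 granzyme genes of the chromosome 14 cluster, in their order along the chromosome, in both healthy spleens and in 4T1, EL-4 and MCA203 tumors. MCA203 stands above the other groups for Gzme, Gzmd, Gzmg, Gzmf and Gzmc, EL-4 joins it at Gzmb, and all groups meet at Gzmn between 2.81 and 2.99.

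The promoters of Gzmc, Gzmd and Gzme are shown because these genes rose together in MCA203, with that of Gzmb, which rose in EL-4 by nearly as much as in MCA203 (4.60 and 5.18). Each is the 250 bases before the transcription start, from RefSeq on GRCm38.p6, and 9 of 9 members matched an entry. Capitals mark matches to the motifs searched on both strands.
Gzmc, chr14:56234658-56234907, minus strand: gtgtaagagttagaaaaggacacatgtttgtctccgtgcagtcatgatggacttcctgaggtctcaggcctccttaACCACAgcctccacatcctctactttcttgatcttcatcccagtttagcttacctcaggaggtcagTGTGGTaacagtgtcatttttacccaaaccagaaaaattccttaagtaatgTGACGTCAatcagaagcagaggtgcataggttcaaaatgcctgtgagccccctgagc
Gzmd, chr14:56132594-56132843, minus strand: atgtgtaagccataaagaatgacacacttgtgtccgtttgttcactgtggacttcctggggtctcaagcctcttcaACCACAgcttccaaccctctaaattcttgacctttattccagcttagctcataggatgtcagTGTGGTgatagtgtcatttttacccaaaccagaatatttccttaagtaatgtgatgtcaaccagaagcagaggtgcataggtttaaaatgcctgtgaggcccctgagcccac
Gzme, chr14:56120626-56120875, minus strand: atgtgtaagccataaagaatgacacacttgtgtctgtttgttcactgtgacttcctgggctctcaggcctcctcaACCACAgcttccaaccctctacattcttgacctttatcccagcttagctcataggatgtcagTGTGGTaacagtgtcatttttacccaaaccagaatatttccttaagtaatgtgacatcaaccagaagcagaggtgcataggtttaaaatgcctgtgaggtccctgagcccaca
Gzmb, chr14:56262335-56262584, minus strand: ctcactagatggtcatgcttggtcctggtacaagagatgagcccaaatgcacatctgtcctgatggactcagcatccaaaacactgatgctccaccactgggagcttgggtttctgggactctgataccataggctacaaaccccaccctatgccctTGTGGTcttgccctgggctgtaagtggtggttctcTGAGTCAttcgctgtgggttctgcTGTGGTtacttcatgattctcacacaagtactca
The motifs were RUNX (TGTGGT), AP-1 (TGANTCA), CRE (TGACGTCA), STAT (TTCNNNGAA) and T-box (GGTGTGA), and no marked match overlaps another. Gzmd and Gzme were 94.8% identical over the aligned bases, Gzmc was 81.3% identical to Gzmd and 81.8% to Gzme, and Gzmb was 50.2% identical to Gzmc, 47.3% to Gzmd and 48.4% to Gzme. Pairs across chromosomes gave like values, such as 50% for Gzma with Gzmb and 51.6% for Gzmk with Gzmc. A value near 50% is therefore no sign of shared sequence here. RUNX matches stand at 174 and 108 bases before the start in Gzmc, 174 and 112 in Gzmd, 175 and 113 in Gzme, and 93 and 34 in Gzmb. A RUNX match is found in 14.1% of the 32851 promoters of this length. Gzmc also has a CRE match at 57 bases (1.55% of promoters hold one) and Gzmb an AP-1 match at 58 bases (6.75%). Of the other members, Gzma, Prf1 and Nkg7 also have a RUNX match, at 50, 130 and 83 bases. The STAT motif was matched in Nkg7 and Ifng (7.02% of promoters) and the T-box motif in Nkg7 and Gzmk (3.33%). A match describes the letters only.

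Gzmd and Gzme are close relatives, and 1 probe set is assigned to both. The probe set used for Gzmd rose by 6.91 in MCA203 and its other one by 7.14, and the single probe set assigned to Gzme alone rose by 4.42. The shared probe set rose by 6.01. Probe sequences were not compared here, so the single values of Gzmd and Gzme are uncertain, while each of these 4 probe sets rose. The same limit holds for Gzmf and Gzmg of the same cluster. Prf1 also has 2 probe sets, and they disagree. The one used ran from 4.17 to 9.86 over the 30 arrays. The other stayed between 3.70 and 4.67, with differences of -0.13 in EL-4, -0.19 in MCA203 and -0.21 in 4T1, so every Prf1 change given here rests on 1 probe set.

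**Figure D4:**
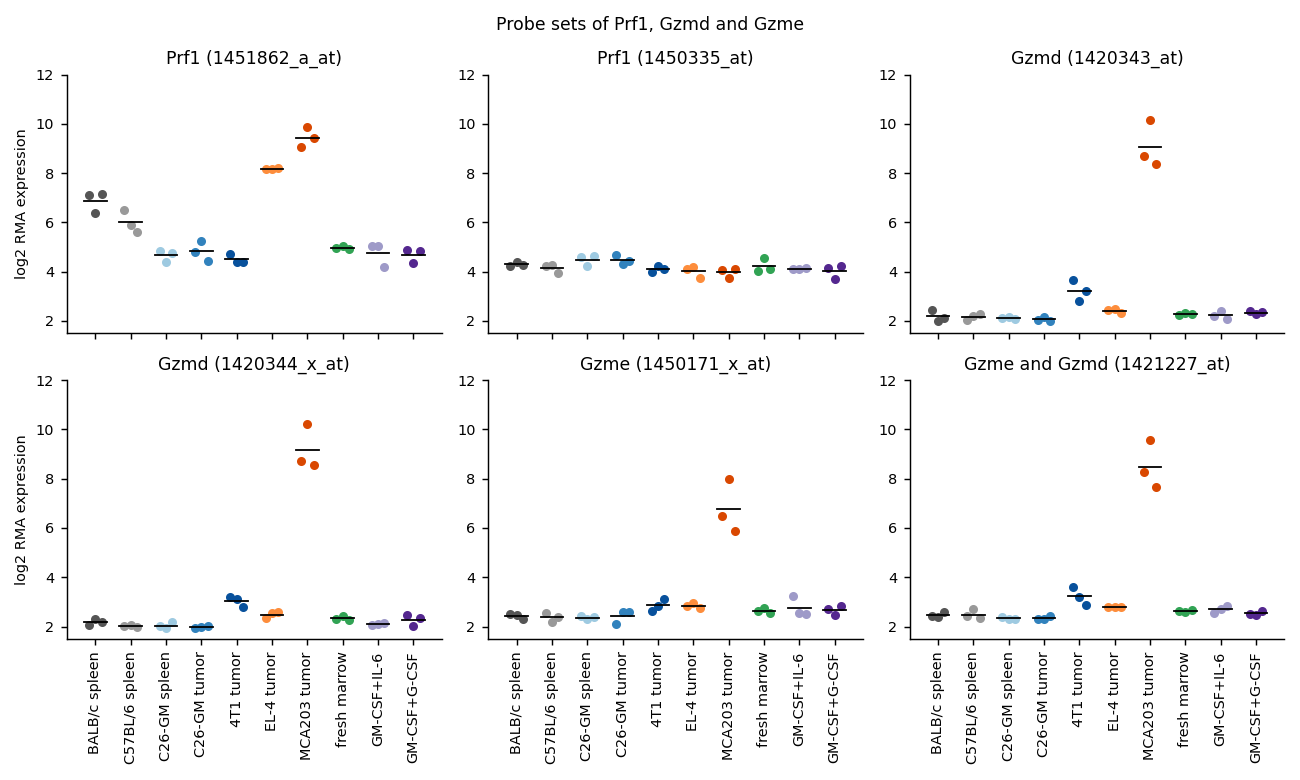
Log2 RMA expression on the 30 arrays for the probe sets of Prf1, Gzmd and Gzme and for the set assigned to Gzme and Gzmd together; points are arrays and bars are group means. The 2 Prf1 sets differ, one spanning 4.17 to 9.86 and the other 3.70 to 4.67, while the 4 Gzmd and Gzme sets all peak in MCA203.

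Set directly against each other, EL-4 was lower than MCA203 in 4 members and higher in 1, where 1.4% of all genes were called lower, 3.88% higher and 5.28% either way. Gzmd differed by -6.65 ± 0.27, Gzme by -3.94 ± 0.30 and Gzmc by -3.82 ± 0.25 (limma, adjusted p = 2.06e-15, 3.07e-10 and 1.71e-11). Prf1 was also lower in EL-4, by -1.27 ± 0.26 (adjusted p = 0.00116). Ifng went the other way, 1.12 ± 0.24 higher in EL-4 (adjusted p = 0.00173), but it missed the 2-fold limit without EL-4 array 3 (0.94) or MCA203 array 1 (0.82). Gzma differed by 0.85 (adjusted p = 0.0952) and passed without MCA203 array 2 (1.24). Gzmb differed by -0.58, Nkg7 by -0.70 and Gzmk by -0.12, and none of these passed (adjusted p = 0.13, 0.0555 and 0.679).

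Markers of T cells and NK cells moved in the same tumors. Of 14 T cell markers measured, 7 rose and 0 fell in EL-4, with Cd28 at 3.15, Cd3g at 2.96, Cd8b1 at 2.94 and Cd3d at 2.02, and 8 rose and 1 fell in MCA203, with Cd3g at 4.03 and Cd8b1 at 3.46. The mean of the T cell list ran from 5.67 to 5.82 in C57BL/6 spleen, up to 7.23 in EL-4 (group mean 7.14) and 6.83 to 7.25 in MCA203. Of 14 NK cell markers, 3 rose and 3 fell in EL-4 (list mean 6.07 to 6.40 against 5.93 to 6.22 in spleen), and 6 rose and 1 fell in MCA203 (6.69 to 7.23). Klrc1, an NK receptor chain that activated CD8 T cells also carry, rose by 2.87 in EL-4 and 3.75 in MCA203. Ncr1, another NK receptor, differed by 0.037 and 0.42, neither passing. These 2 genes do not stand for the 14, which were called in both directions in both tumors, and no cell source is read from them. No marker is at 0 on this scale. Of 12 myeloid genes, 1 rose and 3 fell in each of these tumors, with a median difference of 0.058 in EL-4 and -0.32 in MCA203. The myeloid list means were 10.95 to 11.09 in EL-4 and 10.89 to 11.11 in MCA203 against 11.79 to 11.91 in spleen. Within that list S100a9 and S100a8 differed by -4.85 and -4.41 in EL-4 and by -4.38 and -4.17 in MCA203. EL-4 is itself a lymphoma of T cell origin, and transcripts of any carried-over tumor cells cannot be told from those of infiltrating T cells here. The part of T cells, NK cells or tumor cells in the members' rise was not tested.

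The BALB/c tumor groups went the other way. Spleens of C26-GM bearing mice had 3 of 9 members lower and 0 higher than healthy BALB/c spleen, where 3.83% of all genes were called lower, 2.32% higher and 6.14% either way. Gzma, whose group mean was highest in healthy BALB/c spleen, read 5.48, 6.19 and 6.10 and fell by 4.66 ± 0.34 (25.4-fold lower, adjusted p = 1.13e-10). Gzmb read 4.71, 4.94 and 4.49 and fell by 2.21 ± 0.26 (4.62-fold lower, adjusted p = 4.13e-07). Prf1 read 4.83, 4.40 and 4.75 and fell by 2.22 ± 0.26 (4.67-fold lower, adjusted p = 5.16e-07). No array of these 3 genes reached the healthy range. Nkg7 read 7.58, 6.46 and 6.19, and its first array lay within the healthy range of 7.37 to 7.92. Nkg7 differed by -0.97 ± 0.25 (adjusted p = 0.00661) and Ifng by -0.91 ± 0.24 (adjusted p = 0.00919), below the 2-fold limit. Both passed it without BALB/c array 2 (-1.15 and -1.16) or without C26-GM spleen array 1 (-1.39 and -1.01), for a count of 5, and under centring on housekeeping genes (-1.19 and -1.12). Gzmc, Gzmd, Gzme and Gzmk differed by -0.068 to 0.16, none passing. Ifng stayed below 4.85, the lowest array median, in every group but EL-4 and MCA203, so its falls are differences among low readings.

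In the C26-GM tumor infiltrate 5 of 9 members were lower than in BALB/c spleen and 0 higher, where 7.13% of all genes were called lower, 4.26% higher and 11.4% either way. Gzma read 4.91, 5.62 and 5.46, a fall of 5.25 ± 0.34 (38.2-fold lower, adjusted p = 2.5e-12). Nkg7 read 4.87, 4.31 and 4.31 and fell by 3.22 ± 0.25 (9.32-fold lower, adjusted p = 7.56e-11). Both genes were far below all healthy arrays. Gzmb fell by 2.13 ± 0.26 to 4.79 ± 0.26 (SD, n = 3), Prf1 by 2.06 ± 0.26 to 4.82 ± 0.40 and Ifng by 1.16 ± 0.24 to 2.74 ± 0.18 (adjusted p = 2.5e-07, 6.12e-07 and 0.000488). Gzmc, Gzmd, Gzme and Gzmk differed by -0.24 to 0.0055, and none passed. Against the spleens of C26-GM bearing mice the tumor differed in 1 member, Nkg7, by -2.25 ± 0.25 (4.75-fold lower, adjusted p = 2e-07), where 3.36% of all genes were called lower, 2.79% higher and 6.16% either way.

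4T1 tumors had 5 of 9 members lower and 1 higher than BALB/c spleen, where 5.44% of all genes were called lower, 6.83% higher and 12.3% either way. Gzma read 5.45, 4.76 and 5.50 and fell by 5.35 ± 0.34 (40.9-fold lower, adjusted p = 1.85e-12). Nkg7 fell by 3.05 ± 0.25, Prf1 by 2.38 ± 0.26 and Gzmb by 1.71 ± 0.26 (adjusted p = 2.03e-10, 5.21e-08 and 7.34e-06). Ifng fell by 1.11 ± 0.24 (adjusted p = 0.000777), but missed the 2-fold limit without BALB/c array 1 (-0.96). Gzmd alone was higher, with readings of 3.65, 2.81 and 3.21 against 2.43, 1.97 and 2.13, all below the lowest array median of 4.85. The groups did not overlap, yet the difference of 1.04 ± 0.27 (2.06-fold, adjusted p = 0.00365) fell under the limit without BALB/c array 2 (0.94) or 4T1 array 1 (0.83), with centring on housekeeping genes (0.70), with the mean of both Gzmd probe sets (0.95) and on the second probe set alone (0.86). Gzmd was likewise the 1 member called between 4T1 and C26-GM tumors, 1.16 ± 0.27 higher in 4T1 (adjusted p = 0.00123), where 8.95% of all genes were called higher, 3.9% lower and 12.9% either way. This value fell to 0.95 without 4T1 array 1 and to 0.96 with housekeeping centring.

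NK and T cell markers fell in the same 3 groups. Of the 14 NK markers, 8 were lower in C26-GM spleen and 9 in each BALB/c tumor, with none higher, and Klrd1 differed by -4.07, -4.35 and -4.23. The NK list mean ran from 5.99 to 6.26 in healthy BALB/c spleen, 4.80 to 5.03 in C26-GM spleen, 4.64 to 4.95 in C26-GM tumor and 4.47 to 4.55 in 4T1. Of the 14 T cell markers, 4, 6 and 6 were lower and none higher, with list means of 5.81 to 5.95 in healthy spleen, 5.19 to 5.25 in C26-GM spleen, 4.84 to 5.01 in C26-GM tumor and 4.70 to 4.79 in 4T1. The part of these cells in the members' fall was not tested. Of 9 B cell markers, 8 fell in each of these 3 groups, and 7 fell in EL-4 and 8 in MCA203.

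The difference between the 2 directions was tested as 1 contrast, the mean rise of EL-4 and MCA203 over C57BL/6 spleen less the mean change of C26-GM and 4T1 tumors from BALB/c spleen. All 9 members were called higher, where 2.83% of all genes were called higher, 2.11% lower and 4.93% either way, from 2.22 ± 0.37 for Gzme (adjusted p = 0.000125) to 6.81 ± 0.29 for Ifng (adjusted p = 2.69e-15). Gzmb reached 6.81 ± 0.31, Gzma 6.15 ± 0.42, Nkg7 5.84 ± 0.30 and Prf1 5.03 ± 0.32. Gzma was called in both BALB/c tumors (lower) and in EL-4 (higher) but not in MCA203. Gzmc and Gzmk were called in both C57BL/6 tumors and in neither BALB/c one. Of the C57BL/6 tumors, Gzmd and Gzme were called in MCA203 but not in EL-4. The median of the 9 members was 5.03 and that of all genes 0.029. In the same contrast 8 of 14 NK markers and 11 of 14 T cell markers were higher and none lower.

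Nkg7 and the other members differed in fresh bone marrow. Against BALB/c spleen, 1 of 9 members was higher and 4 lower, where 5.76% of all genes were called higher, 7.49% lower and 13.3% either way. Nkg7 read 9.71, 9.73 and 9.46 in marrow against 7.86, 7.37 and 7.92 in spleen, a rise of 1.92 ± 0.25 (3.78-fold, adjusted p = 6.31e-07). Its marrow arrays overlapped those of EL-4, and its marrow mean was the second highest of the 10 groups. Gzma fell by 4.22 ± 0.34 (18.6-fold lower, adjusted p = 2.12e-10), Prf1 by 1.92 ± 0.26, Gzmb by 1.83 ± 0.26 and Ifng by 1.17 ± 0.24 (adjusted p = 1.56e-06, 2.34e-06 and 0.000375). Prf1 read 4.94, 5.04 and 4.91 in marrow, and Gzmb 4.98, 5.11 and 5.19, both below every spleen array. The NK list mean was 4.70 to 4.79 in marrow, with 1 of 14 markers higher and 8 lower; Klrd1 differed by -4.66 and Ncr1 by -2.59.

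Over the 30 arrays Nkg7 correlated with the NK list mean at r = 0.70, and at r = 0.91 over the 27 arrays without fresh marrow, while the other 8 members each moved by less. Over the 30 arrays these were Prf1 at 0.94, Gzma 0.93, Gzmb 0.88, Ifng 0.78, Gzmk 0.76, Gzmc 0.69, Gzme 0.59 and Gzmd 0.58, and over the 27 arrays 0.94, 0.93, 0.87, 0.76, 0.76, 0.68, 0.59 and 0.57. Arrays of a group are alike, so this describes 10 groups. Among groups with a low NK list, Nkg7 was highest in fresh marrow, so the rise in the r of Nkg7 follows from leaving marrow out. C26-GM spleen showed a smaller split, with Nkg7 at 7.58, 6.46 and 6.19 and an NK list mean of 4.80 to 5.03. In C26-GM tumor Nkg7 read 4.87, 4.31 and 4.31 at an NK list mean of 4.64 to 4.95. The first C26-GM spleen array had Nkg7 within the healthy BALB/c range at an NK list mean of 4.80. Healthy BALB/c spleen had NK list means of 5.99 to 6.26. In marrow Nkg7 was joined by Cd3d, a chain of the T cell receptor complex, at 10.87 ± 0.18 against 8.57 ± 0.06 in spleen (SD, n = 3), a rise of 2.31, whereas Cd3g, its partner chain, fell by 1.64. Cst7, which encodes cystatin F, an inhibitor of the protease that activates granzymes, rose by 2.64 ± 0.26 (limma, adjusted p = 6.54e-09). Of the 14 T cell markers 2 were higher and 6 lower, with a list mean of 5.39 to 5.44.

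**Figure D5:**
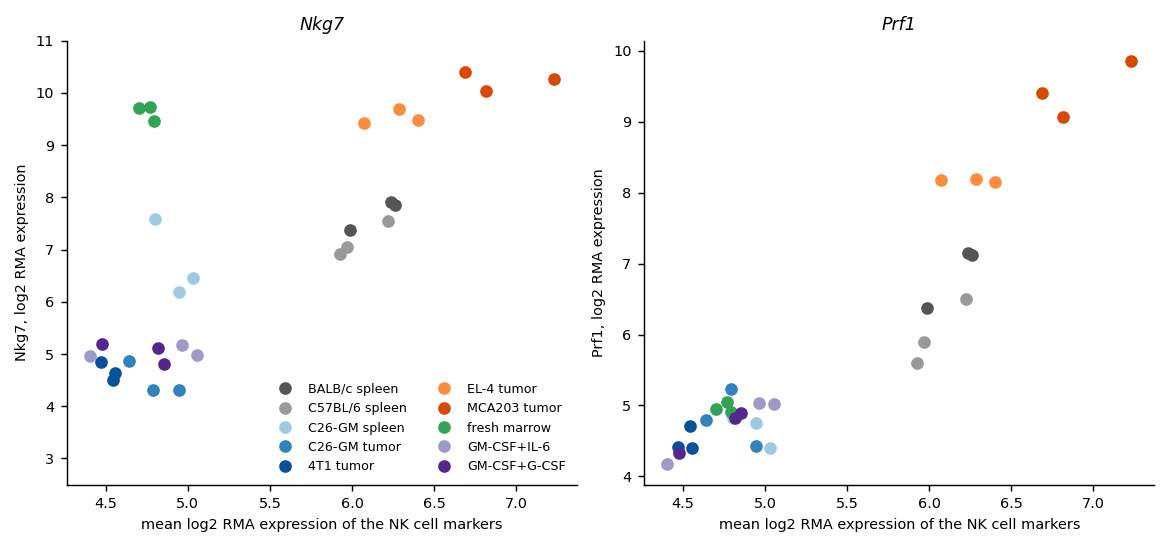
Nkg7 (left) and Prf1 (right) on each array against the mean log2 RMA expression of 14 NK cell markers; each point is 1 of 30 arrays, colored by group. The 3 fresh marrow arrays stand alone in the Nkg7 panel, at 9.46 to 9.73 with an NK marker mean of 4.70 to 4.79, and lie among the low groups in the Prf1 panel. In the Nkg7 panel the C26-GM spleen arrays lie between marrow and the other low groups, at 6.19 to 7.58 with an NK marker mean of 4.80 to 5.03.

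After 4 days of culture Nkg7 was low. With GM-CSF plus IL-6, Nkg7 read 4.98, 5.18 and 4.97, a fall from fresh marrow of 4.59 ± 0.25 (24.1-fold lower, adjusted p = 1.39e-13). With GM-CSF plus G-CSF it read 4.82, 5.19 and 5.12, a fall of 4.60 ± 0.25 (24.2-fold lower, adjusted p = 1.51e-13). Neither culture approached the marrow arrays. Gzma differed by -1.42 ± 0.34 with IL-6 and by -1.27 ± 0.34 with G-CSF (adjusted p = 0.00175 and 0.00459). These were the 2 of 9 members called in each culture. With IL-6, 9.07% of all genes were called lower, 5% higher and 14.1% either way, and with G-CSF 9.37% lower, 4.48% higher and 13.9% either way. Cd3d fell by 3.72 and Cst7 by 1.20 with IL-6. Between the cultures limma called 0 of 9 members, and 0 had an unadjusted p below 0.05, where 0.456% of all genes were called higher, 0.198% lower and 0.654% either way. The 9 differences ran from -0.26 to 0.14, and their 95% intervals reached from -0.84 to 0.70. A change of 2-fold lies outside these intervals, which use a spread pooled over all 10 groups. Gzma had an SD of 0.61 with IL-6 and 0.38 with G-CSF (n = 3). Intervals from the culture arrays alone were not computed, so a 2-fold change is not excluded.

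Genes that load, guard and release granules were called in both directions. Of 18 granule machinery genes, 2 rose and 3 fell in EL-4, 2 rose and 2 fell in MCA203, and the list's median difference was 0.13 and 0.08 beside 0.015 and 0.14 for all genes. Of all genes, 6.42% were called higher and 4.4% lower in EL-4, and 5.01% and 5.42% in MCA203. Such small counts, and those of the lists below, are to be read beside the shares given with each comparison. Ctsw, a granule cathepsin of killer cells, rose by 2.05 in MCA203 and differed by -1.31 in C26-GM tumor and -1.53 in 4T1. Rab27a and Lyst, needed for granule release and granule size, fell in both C57BL/6 tumors, Rab27a by 1.08 and 1.65 and Lyst by 1.83 and 2.91. Among 6 serpins that can inhibit granzymes, Serpinb9, the inhibitor of granzyme B, rose by 1.57 in EL-4 and also rose in MCA203, and fell by 2.30 and 2.24 in C26-GM spleen and tumor, while Serpinb1a differed by -4.45 in MCA203. In all, 2 serpins rose and 1 fell in each C57BL/6 tumor, while 1 rose and 3 fell in C26-GM spleen, 0 rose and 3 fell in C26-GM tumor, and 0 rose and 2 fell in 4T1. Of 13 other killing genes, 4 rose and 1 fell in EL-4 and 5 rose and 2 fell in MCA203. Fasl, the death ligand, rose by 1.08 and 2.47 there and differed by -1.61 in C26-GM spleen and -1.59 in 4T1.

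Upstream of Ifng, 20 genes of its induction were measured, of which 3 rose and 1 fell in EL-4 and 2 rose and 2 fell in MCA203. Il2rb, a receptor chain for IL-2 and IL-15, rose by 2.48 and 2.98, and Il12rb1, a chain of the IL-12 receptor, by 2.31 and 2.44. Il2rb and Eomes also stand in the NK list. Of the 20, 0 rose and 5 fell in C26-GM spleen, 3 rose and 4 fell in C26-GM tumor, and 1 rose and 7 fell in 4T1. The transcription factor Stat4 differed by -2.53, -2.46 and -1.62. Tbx21, which encodes T-bet and drives Ifng, fell by 2.35 in C26-GM tumor and by 2.36 in 4T1 but differed by 0.56 in EL-4 and -0.048 in MCA203, neither passing. Of 9 receptor and signalling genes, 1 rose and 2 fell in EL-4 and 2 rose and 2 fell in MCA203; Socs1, which damps the pathway, rose by 2.44 and 1.42.

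Of 19 genes induced by interferon gamma that were measured, 13 rose in EL-4 and 10 in MCA203, and 0 fell, with list medians of 1.52 and 1.13. Cxcl9, a chemokine for activated T cells, rose by 3.30 and 3.91, and Iigp1, a GTPase of cell-autonomous defense, by 2.91 and 3.27. Nos2, the inducible nitric oxide synthase of macrophages, rose by 2.93 in EL-4 and differed by 0.58 in MCA203. Gbp2b rose by 4.56 and 6.37 but already differed by -4.43 between healthy C57BL/6 and BALB/c spleen. In C26-GM spleen 7 fell and 0 rose, and in C26-GM tumor 5 fell and 0 rose; Cxcl9 differed by -2.39 and -2.34. In 4T1 9 of 19 rose and 1 fell, with Cxcl11 at 2.76, Iigp1 at 2.45 and Cxcl10 at 1.76. There Ifng read 2.85, 2.76 and 2.78, all below the healthy spleens at 3.39 to 4.21. Both groups lay below the lowest array median of 4.85 for Ifng, so this difference is among low readings. In fresh marrow 13 fell and 0 rose.

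Over the 30 arrays the genes whose pattern was most like a member's were sought among 2932 genes whose group means spanned at least 2 log2 units, 3 per member. Gzmb was closest to Cd3g (r = 0.98), Cd8b1 (0.98) and Skap1 (0.97). Gzmk was closest to Pdcd1 (0.98), Cxcr6 (0.96) and Cd8b1 (0.96), and Ifng to Pdcd1 (0.97), Cd27 (0.97) and Cd8b1 (0.96). Prf1 was closest to Fasl, Klrc1 and Cd3g (each 0.97). Gzma had another set, Gimap6 (0.96), Tbx21 (0.94) and Gimap4 (0.94). Gzmd and Gzme were closest to Gzmf and Gzmg (each 0.98), followed by Tmem171 (0.91 and 0.90), and Gzmc to Gzmf (0.97), Gzmg (0.92) and Cxcr6 (0.92). Nkg7 had the loosest matches, Cd3d (0.86), Esm1 (0.81) and Ncapg2 (0.80). These correlations rest on 10 groups whose arrays are alike.

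Ordered by group mean, MCA203 came first for Gzmb, Gzmc, Gzmd, Gzme, Gzmk, Prf1 and Nkg7, EL-4 for Ifng and BALB/c spleen for Gzma. The MCA203 and EL-4 arrays did not overlap for Gzmb, Gzmc, Gzmd, Gzme, Prf1, Nkg7 or Ifng, but did for Gzmk and Gzma. Of those without overlap, Gzmb and Nkg7 were not called (limma, adjusted p = 0.13 and 0.0555). The share of all genes without overlap was not computed, so this list describes the arrays only. Below the first 4 places Gzma, Gzmb and Prf1 showed no gap between neighboring groups: from fresh marrow or 4T1 down to the last group each neighbor overlapped the next. Gzma in these 6 groups had means from 4.95 to 6.37, Gzmb from 4.71 to 5.21 and Prf1 from 4.51 to 4.97. The group means of Gzmd spanned 7.01 units, those of Ifng 6.98 and those of Gzmk 2.70.

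Markers of other cells that a CD11b+ fraction could hold were counted in the same way. Of 9 plasmacytoid dendritic cell markers, 0 rose and 3 fell in EL-4 and 1 rose and 3 fell in MCA203. The counts were 0 and 3 in C26-GM spleen, 0 and 4 in C26-GM tumor, and 1 and 3 in 4T1. Of 11 mast cell and basophil markers, 1 rose and 2 fell in EL-4 and 0 rose and 2 fell in MCA203. In each C26-GM group 1 rose and 2 fell, and in 4T1 0 rose and 3 fell. Mast cell and basophil list means were highest in fresh marrow, at 5.73 to 6.01 against 5.28 to 5.71 in BALB/c spleen. Of 11 housekeeping genes, 3 rose and 0 fell in each of the C26-GM, 4T1, EL-4 and MCA203 tumors.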

How the data were processed

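The 30 arrays were measured on the Affymetrix MOE430 2.0 platform from CD11b+ cells; RNA came from a Trizol extraction followed by an RNeasy column, per the labels' protocols. The authors deposited log2 expression values made with RMA, per the submitters' processing notes, with the version not given in the sources used here. RMA corrects background, normalises arrays to each other and summarises probes, which compresses low values, so folds from a gene near the lowest readings are likely understated. The number of arrays limits precision. Of 45101 probe sets, 34958 had 1 gene symbol in the annotation, 932 several and 9211 none, and those with several or none were left out; the brightest 1-symbol set stood for a gene, giving 18194 genes.

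All 30 arrays entered 1 limma fit (R 4.3.3, limma 3.58.1) with a mean per group, and p-values were adjusted by Benjamini-Hochberg over all genes. Errors written with a difference are standard errors of that fit, which pools the spread of all groups. Simulated data with known changes were tested first: in EL-4 against C57BL/6 spleen with 18194 genes, 91 of 100 genes changed by 1.5 log2 units and 100 of 100 changed by 3 were recovered. The 9 members and the gene lists were chosen with earlier results of these data known. All members are named; list genes are named by the largest called changes, at most 4 per list and comparison, and a few that did not pass (Ncr1 and Tbx21 in both C57BL/6 tumors, Gzmf, Gzmg and Gzmn, Nos2 in MCA203) or lie outside the largest changes (Rab27a and Fasl in EL-4, Stat4 in 4T1, Cd3g in marrow) were added after the values were seen. Genes like a member are the 3 with the highest correlation that are not predicted transcripts.

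Alternatives were the mean of a gene's probe sets, leaving out probe sets named _x_at, _s_at or _a_at, housekeeping centring and a further quantile normalisation. Others were only the compared groups, a trended robust prior, array weights and a filter on low values at the 40th percentile. Other thresholds, a replicate block and leaving out arrays were also run. Whether replicate numbers pair arrays cannot be told from these values. In no comparison did every pair's deviations correlate above 0.1. For C26-GM tumor against C26-GM spleen the correlations were 0.37, 0.063 and 0.47, so a pairing by mouse is not excluded there. Figures were drawn with matplotlib 3.10.9 and promoters aligned with Biopython 1.88. Scanner files were not used here.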

Additional observations from a re-analysis of the deposited data

Results flagged for a closer look

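The mean change from healthy spleen differed between the C57BL/6 and BALB/c tumors for all 9 members by a test of the difference itself. It was 6.81 for Gzmb, 6.81 for Ifng, 6.15 for Gzma, 5.84 for Nkg7 and 5.03 for Prf1 (log2 units). For the others it was 3.84 for Gzmc, 3.12 for Gzmd, 2.64 for Gzmk and 2.22 for Gzme. For Gzmd and Gzme it rests on MCA203, as EL-4 gave 0.26 and 0.47 beside 1.04 and 0.44 in 4T1. Prf1 gave -0.14 on its other probe set. Strain and tumor line cannot be told apart in this contrast.

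Tumors of the same strain also differed from each other. EL-4 less MCA203 was -6.65 for Gzmd, -3.94 for Gzme, -3.82 for Gzmc, -1.27 for Prf1 and 1.12 for Ifng. 4T1 less C26-GM was 1.16 for Gzmd.

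The probe set that the annotation assigns to Gzme and Gzmd together was not used for the value of either gene. It read 8.26, 9.56 and 7.67 in MCA203 against 2.43, 2.69 and 2.34 in C57BL/6 spleen, a difference of 6.01 ± 0.26. In 4T1 it read 3.60, 3.21 and 2.89 against 2.43, 2.38 and 2.57 in BALB/c spleen.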

How the results depend on the processing

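Across 2321 member values under the alternatives, 20 lost the call, 13 gained it and 6 reversed. The other 2282 kept the call or its absence, and among these are 99 uncalled values whose sign differed. The 6 reversed values, which changed sign and lost the call, are all of Prf1. They were 0.18 in C26-GM spleen, 0.17 in C26-GM tumor, -0.13 in EL-4 and -0.19 in MCA203. The others were 0.054 for EL-4 less MCA203 and -0.14 in the contrast of tumor effects. Their adjusted p ran from 0.498 to 0.891 (limma). All come from leaving out probe sets named _x_at, _s_at or _a_at, which leaves the other Prf1 probe set. That setting, which also removes the probe sets of Gzma and Gzme, gave 1 called member of 3 in C26-GM spleen, 3 of 5 in C26-GM tumor, 0 of 1 between healthy spleens, 3 of 5 in fresh marrow, 1 of 2 in each culture and 3 of 5 for EL-4 less MCA203. The counts in EL-4, MCA203, 4T1 and the contrast of tumor effects were smaller too. There Prf1 lost its call, and Gzma, Gzme or both dropped out. Housekeeping centring gave 5 in C26-GM spleen and 0 between 4T1 and C26-GM tumors, and took Ifng for EL-4 less MCA203 to 0.92. An adjusted p below 0.01 gave 0 between healthy spleens, and no minimum fold gave 5 in C26-GM spleen. With the mean of all probe sets Prf1 differed by -0.95 in C26-GM tumor and by -0.61 for EL-4 less MCA203.

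With 1 array left out, the number of called members ran from 3 to 5 in C26-GM spleen, 5 to 6 in 4T1, 0 to 3 between healthy spleens, 0 to 1 between 4T1 and C26-GM tumors and 4 to 6 for EL-4 less MCA203, and the other 9 comparisons did not move. With replicate number as a replicate block the counts were those of the fit without it, such as 7 in EL-4 and 8 in MCA203. No member's call changed. Whether arrays of the same number share more than that number is not known. Housekeeping centring moved the median of all genes by -0.51 in EL-4, -0.35 in 4T1, -0.31 in MCA203, -0.22 in C26-GM spleen, -0.14 in C26-GM tumor and -0.17 in fresh marrow. The higher share of called genes went from 59.3% to 20.3% in EL-4, 55.7% to 31.7% in 4T1, 48% to 25.7% in MCA203, 37.7% to 21.7% in C26-GM spleen, 43.5% to 31.7% in fresh marrow, 69.7% to 50.7% for 4T1 less C26-GM tumor, 73.5% to 48.9% for EL-4 less MCA203 and 57.3% to 41.4% in the contrast of tumor effects. A further quantile normalisation took it from 35.5% to 49.9% in the IL-6 culture and from 32.4% to 46.3% in the G-CSF culture. Housekeeping centring takes the housekeeping mean off each array, and so moves every gene of a comparison by the same amount. That mean was 11.21 in EL-4 and 10.71 in C57BL/6 spleen. Why the housekeeping mean differed between groups, and the cause of the movement under quantile normalisation, were not tested. The runs on either kind of culture array were chosen after seeing the data.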
